A study of Triticum aestivum with 18 samples.

Results

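The genes described here are the annotated autophagy genes of wheat, taken as every gene with a TraesCS identifier whose deposited description or domain family names autophagy, autophagocytosis, Atg8 or a phosphatidylinositol or phosphoinositide 3-kinase. TraesCS6B02G214000, the gene that the study measured as ATG8A, was added by name. The rule found 29 of the 134610 genes in the count table. The description field was filled for only 12327 of the 107891 TraesCS genes, so autophagy genes without a description were not found. None of the 29 genes was matched through a 3-kinase term (0 genes), and the set therefore holds autophagy genes only. Seedlings of the wheat cultivar Jimai 22 were grown in nutrient solution, and RNA from the third leaves and from roots was sequenced 4 days after treatment, with 10 plants mixed into each biological replicate. The root groups were TMG, given 3-MA at 5 mM and NaCl at 150 mM, TG, given NaCl only at 150 mM, and CG, the control, and the leaf groups with the same treatments were TMY, TY and CY, with 3 libraries in each of the 6 groups. 3-MA (3-methyladenine) was given 5 h before NaCl, and each 3-MA difference here was measured under salt, since 3-MA alone was in none of the 6 groups.

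Autophagy carries cell material to the vacuole inside double-membraned vesicles, the autophagosomes. ATG8, a small ubiquitin-like protein, is joined to a membrane lipid by the E1-like enzyme ATG7 and the E2-like enzyme ATG3, with the help of a complex of ATG5, ATG12 and ATG16 that ATG7 and ATG10 assemble. ATG6 belongs to the phosphatidylinositol 3-kinase complex that 3-MA inhibits, ATG18 proteins bind the lipid which that kinase makes, and ATG9 is a membrane protein that brings lipid to the growing vesicle.

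By their descriptions the 29 genes comprised 3 genes of ATG3, 2 of ATG6, 2 of ATG7, 3 of ATG9, 2 of ATG10, 5 of ATG5, 1 of ATG16, 2 of ATG18 and 8 genes described as autophagy-related proteins without a number, beside TraesCS6B02G214000. Several families had copies on the A, B and D chromosomes of the hexaploid genome, as the ATG3 genes TraesCS1A02G220200, TraesCS1B02G233500 and TraesCS1D02G221700 on chromosomes 1A, 1B and 1D. How reads that match several such copies were counted is not given in the sources used here, so the division of reads between copies is uncertain. Of the 29 genes, 25 passed the filter on low counts in every comparison, and these 25 had counts in all 18 libraries.

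TraesCS6B02G214000 was hardly read. The gene lies on chromosome 6B from 289381815 to 289382405 on the plus strand, in the coordinates of the deposited table. Its length of 591 bases equalled its span on the chromosome, so its model has no intron, and it was the only one of the 29 genes of which this was true. The primers designed for its qRT-PCR are shown because the gene is known in the study through that assay, and whether they also match another ATG8 copy was not tested.
forward primer: ggaaaggaggcaagctgaa
reverse primer: gcatctcgttagggacaaggta
The forward primer has 19 bases and a GC content of 52.6%, and the reverse primer has 22 bases and a GC content of 50.0%. Over the 18 libraries the gene took 26 counts in all, with counts in 9 libraries. The 3 TMG libraries held 0, 0 and 0 counts, against 5, 0 and 1 in TG and 0, 3 and 2 in CG. Leaves held 5, 0 and 1 counts in TMY, 0, 0 and 0 in TY, and 1, 6 and 2 in CY. A count of 0 allows up to 3 counts, or 0.0712 to 0.152 CPM according to the library, where CPM is the count scaled to a common library size with TMM factors, for counting error only, and no difference of this gene was detectable at this depth.

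The other 3 genes that did not pass the filter were a copy of ATG7 and 2 copies of ATG5. TraesCS3A02G220600 (ATG7c) had 208 counts in TMG replicate 3 and 0 in the other TMG libraries, and elsewhere 2 counts in TMY replicate 1 and 1 count in TY replicate 1. Since 1 library carried nearly all of its reads, no value was averaged for it. TraesCS6A02G050200 had 6 counts in 3 libraries, and TraesCS6B02G066400 had 0 counts in all 18. Each of these precedes an ATG5 gene with reads in all libraries on the same chromosome, TraesCS6A02G050300 on 6A and TraesCS6B02G066500 on 6B.

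The libraries held 27156078 to 33150906 counts. Leaf markers followed the tissue labels: the 91 genes of chlorophyll a-b binding proteins summed to 14.6 to 425 CPM in root libraries and to 8340 to 89100 CPM in leaf libraries. The root markers did not mark roots, since 14 nicotianamine synthase genes summed to 11.8 to 56.7 CPM in roots and 86.4 to 269 CPM in leaves, and the single casparian strip gene was at most 0.705 CPM in any library. The chlorophyll a-b binding genes also moved with treatment within a tissue, at 14.6 to 21.8 CPM in TMG (49 of the 91 at 0), 56.7 to 101 CPM in TG (37 at 0) and 260 to 425 CPM in CG (16 at 0), and at 8340 to 13500 CPM in TMY, 19200 to 23400 CPM in TY and 46600 to 89100 CPM in CY. Their part in the results was not tested, and in bulk tissue fewer cells of a type cannot be told apart from less RNA per cell. TMY replicate 2 and TG replicate 1 stood apart among their replicates, each with a mean correlation of 0.967 with the others of its group, the lowest of the 18 libraries. TMY replicate 2 was the lowest of the 3 TMY libraries in 20 of the 25 tested autophagy genes, and TMY replicate 3 was the highest in 19. TG replicate 1 was the lowest of the 3 TG libraries in 18.

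Set per length, the genes without a family number led. RPKM values, computed here from the CPM and the gene length, averaged 108 ± 27 for TraesCS2A02G468300 (SD over 18 libraries, chromosome 2A, 712307929 to 712311420). TraesCS2B02G274200 with 76 ± 16.8 RPKM, TraesCS2D02G229900 with 74.2 ± 17 RPKM and TraesCS2A02G224000 with 62.9 ± 12.5 RPKM came next, and their spreads overlap. TraesCS2B02G491200, also without a number, came after these at 44.2 ± 11.2 RPKM. The ATG3 genes, which encode the E2-like enzyme for ATG8, followed at 13.2 to 15.8 RPKM over the 18 libraries, and their order changed between groups. In CG the 1D, 1A and 1B copies had 28.8 ± 3.19, 22.9 ± 2.1 and 18.8 ± 1.79 RPKM (SD, n = 3). In TMG the same copies had 17.8 ± 0.636, 23.9 ± 1.27 and 18.4 ± 0.687 RPKM. All other tested genes lay between 2.02 RPKM (TraesCS6A02G050300, ATG5) and 10.1 RPKM (TraesCS5A02G158000, unnumbered). The highest member of each remaining family was TraesCS3D02G266800 (ATG6a) at 5.92 RPKM, TraesCS3D02G231900 (ATG7b) at 5.2 RPKM, TraesCS1B02G132900 (ATG18a) at 4.87 RPKM, TraesCS4A02G079800 (ATG9) at 4.58 RPKM, TraesCSU02G109200 (ATG5) at 4.57 RPKM, TraesCS2D02G351500 (ATG10b) at 3.75 RPKM and TraesCS5D02G394200 (ATG16b) at 2.15 RPKM. In this order each level differed from the next by less than its own SD over the 18 libraries, except ATG10b from ATG16b. An SD over the 18 libraries also holds the differences between tissues and treatments, so it does not test the order of genes.

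**Figure D1:**
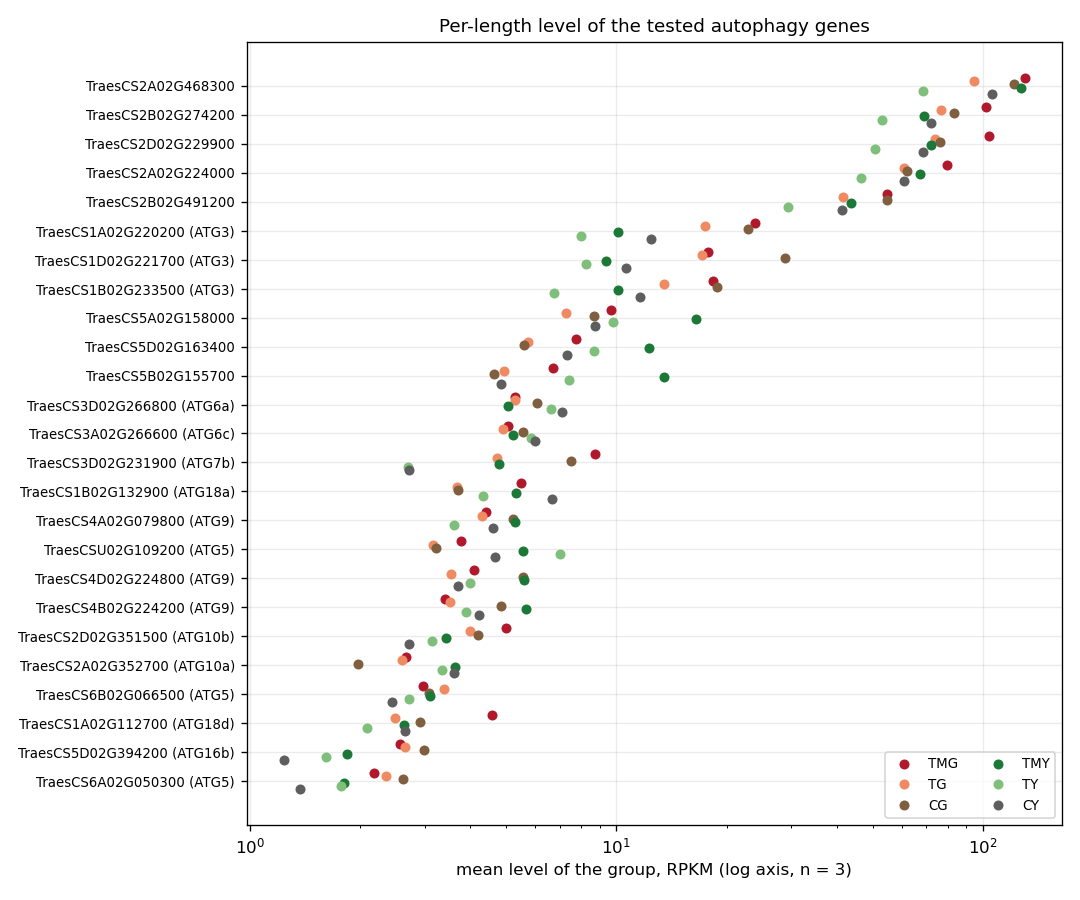
Mean RPKM of each tested autophagy gene (rows, highest first, log axis) in the 6 groups (n = 3 libraries per point, colours by group). The upper 5 rows, all genes without a family number, lie between 29.3 and 130 RPKM, and the ATG3 genes lie between 6.78 and 28.8 RPKM with every root group to the right of the leaf groups.

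The first question was how autophagy genes differed in salt-treated roots when 3-MA was present. Between TMG and TG, 9 of the 25 tested genes rose and 0 fell at an adjusted p of 0.05 or less by edgeR's quasi-likelihood test. Over all 73651 genes tested, 20.2% were called, 8.16% higher and 12% lower. The median log2 fold change was 0.44 over the 25 genes, against -0.01 over all genes, and 23 of the 25 were positive. In 14 genes all TMG libraries lay above all TG libraries (17.1% of all genes), and in 0 genes all lay below (24.1% of all genes). The count of 9 became 4 without TG replicate 2, TMG replicate 1 or TMG replicate 2 and 2 without TMG replicate 3, and the calls stayed higher in each of these fits. Calls over all genes fell as well, from 14879 to 9841, 7430, 7839 and 8442 in the same order of fits. Without TG replicate 1 the count was 10 and the median over the 25 genes was 0.35.

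Among the enzymes that join ATG8 to its lipid, ATG7b, the E1-like activating enzyme, moved furthest. TraesCS3D02G231900 (ATG7b, chromosome 3D, 318505556 to 318511650) had 26.6, 32 and 30.9 CPM in TMG, against 13.2, 16.8 and 18.3 CPM in TG. The groups did not overlap, and the log2 fold change was 0.94 ± 0.15 (SE, adjusted p = 0.0039), called in 6 of 6 fits with 1 library left out. TraesCS1A02G220200 (ATG3) had 36.8, 34.2 and 37.9 CPM in TMG and 24.5, 25.9 and 29.1 CPM in TG, a log2 fold change of 0.51 ± 0.11 (adjusted p = 0.0141, called in 3 of 6 such fits). The 1B copy TraesCS1B02G233500 rose by 0.5 ± 0.12 on the log2 scale (adjusted p = 0.0252, called in 2 of 6 such fits), with 24.4, 24.7 and 26.2 CPM in TMG and 16.2, 18 and 21.2 CPM in TG. The 1D copy TraesCS1D02G221700 was not called, with 30.6, 29.6 and 31.8 CPM in TMG and 28.1, 29.9 and 30.5 CPM in TG (log2 fold change 0.11 ± 0.09, adjusted p = 0.451).

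Both ATG18 genes, whose products bind phosphatidylinositol 3-phosphate, rose. TraesCS1A02G112700 (ATG18d, chromosome 1A) had 8.2, 7.85 and 9.04 CPM in TMG and 2.82, 4.84 and 6.04 CPM in TG, a log2 fold change of 0.93 ± 0.25 (adjusted p = 0.0371). TraesCS1B02G132900 (ATG18a, chromosome 1B) had 9.22, 8.42 and 8.15 CPM in TMG and 4.56, 5.76 and 6.91 CPM in TG, a log2 fold change of 0.64 ± 0.17 (adjusted p = 0.0326). Neither gene's groups overlapped, but TG replicate 1 was the lowest library of its group for both, and over the 25 genes it was the lowest of the 3 TG libraries in 18. Each ATG18 call held in 2 of 6 fits with 1 library left out.

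Of the 8 genes without a family number, 4 rose and all 8 had a positive fold change. TraesCS2D02G229900 (chromosome 2D, 200773617 to 200776230) was the tightest of them, with 65.9, 66.6 and 66.6 CPM in TMG against 47.8, 46.8 and 46.3 CPM in TG. Its log2 fold change was 0.55 ± 0.09 (adjusted p = 0.00387), called in 6 of 6 fits with 1 library left out. TraesCS2A02G468300 had 86.9, 103 and 101 CPM in TMG and 74, 71.2 and 66.9 CPM in TG (log2 fold change 0.51 ± 0.1, adjusted p = 0.0124, called in 4 of 6 such fits). The other called members were TraesCS2B02G274200 and TraesCS2A02G224000, at log2 fold changes of 0.46 and 0.44, called in 5 and 2 of 6 such fits. The 4 uncalled members lay at 0.45 to 0.49, with adjusted p from 0.0541 to 0.13.

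The genes of the ATG5 and ATG16 complex, of ATG10, ATG6 and ATG9 were not called between TMG and TG. TraesCS3D02G266800 (ATG6a), the subunit of the kinase complex, had 12.8, 12.7 and 11.9 CPM in TMG and 9.55, 13.9 and 13.8 CPM in TG, so that the groups overlapped. TraesCS4A02G079800 (ATG9) had 14.4, 13.5 and 14.5 CPM in TMG and 11.8, 14.4 and 15.3 CPM in TG. TraesCSU02G109200 (ATG5) averaged 5.98 ± 0.86 CPM in TMG and 5.02 ± 0.736 CPM in TG (SD, n = 3 each), and TraesCS5D02G394200 (ATG16b) averaged 4.99 ± 0.131 CPM in TMG and 5.17 ± 1.2 CPM in TG. The libraries of TMG and TG overlapped for each of the genes with values given so far in this paragraph. The 4D copy of ATG9, TraesCS4D02G224800, did not overlap, with 13.4, 12.9 and 13.2 CPM in TMG and 9.52, 12.2 and 12.5 CPM in TG (log2 fold change 0.26 ± 0.13, adjusted p = 0.205). TraesCS2D02G351500 (ATG10b) averaged 5.4 ± 0.605 CPM in TMG and 4.3 ± 0.446 CPM in TG, without overlap (log2 fold change 0.38 ± 0.15, adjusted p = 0.114).

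**Figure D2:**
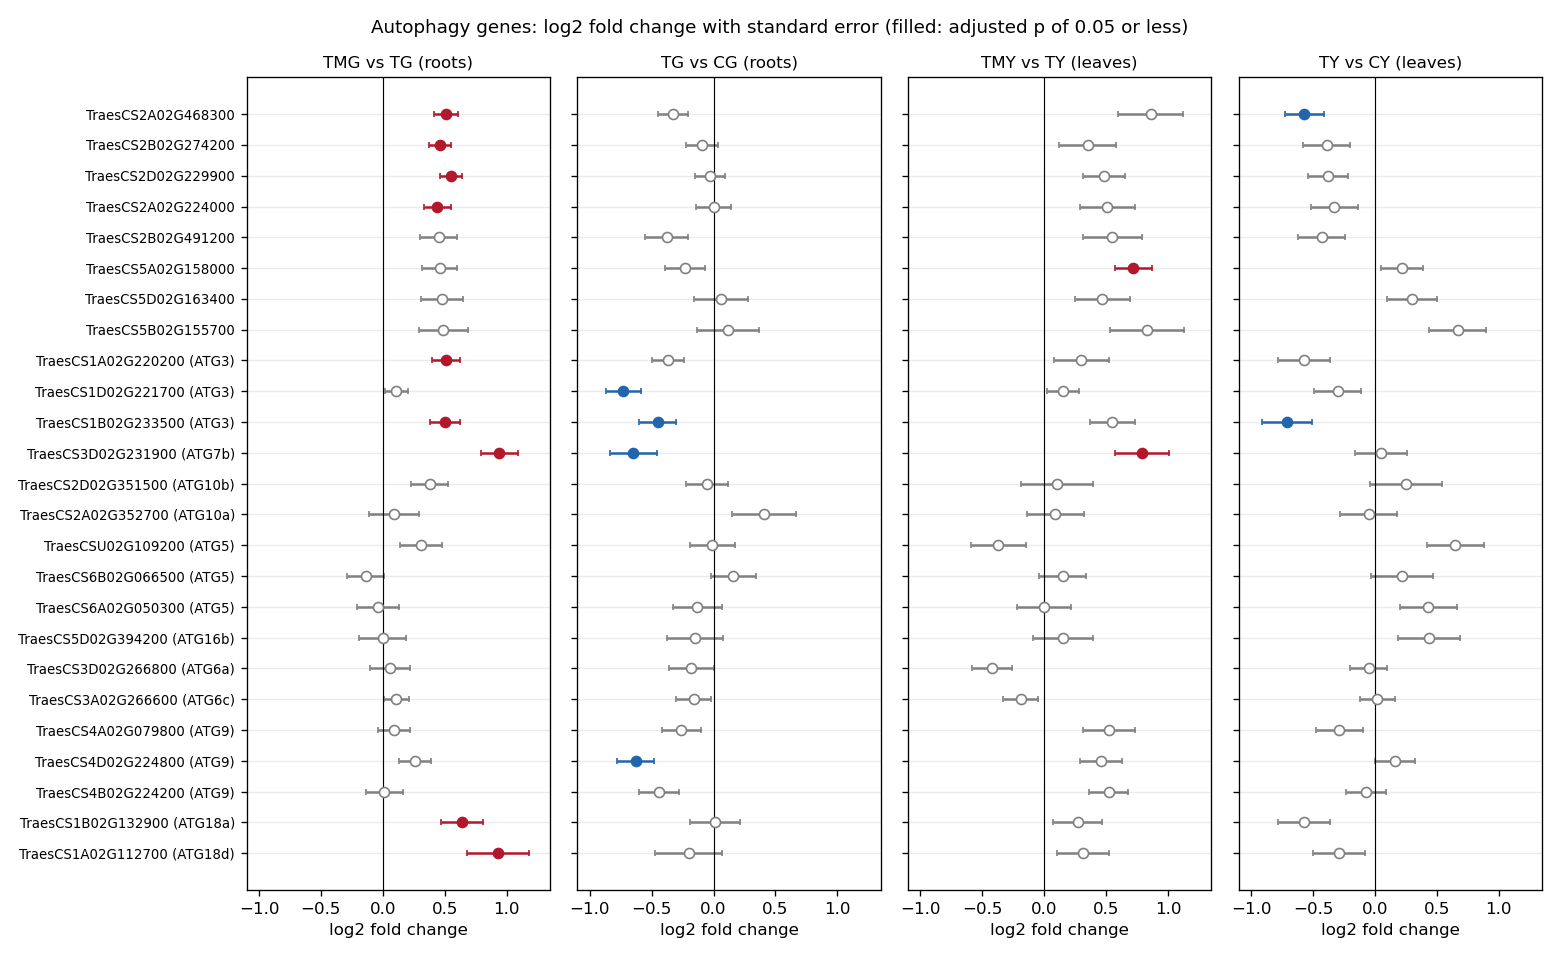
Log2 fold change with its standard error for the 25 tested autophagy genes (rows, by family) in 4 comparisons of 3 against 3 libraries, with filled points where the adjusted p was 0.05 or less (red higher, blue lower). In TMG against TG 9 points are filled, all to the right of 0, and in TG against CG 4 are filled, all to the left.

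The second question was how the same genes differed in roots between NaCl and control. Between TG and CG, 4 of the 25 genes fell and 0 rose. Of all 73066 genes tested, 35.6% were called (18.5% higher and 17.1% lower), so the 16% of autophagy genes called was under the background, and near it for lower genes alone. All TG libraries lay below all CG libraries in 9 genes (25.2% of all genes) and above them in 0 (26.1% of all genes). The median log2 fold change was -0.16 over the 25 genes and 0.03 over all genes. Without CG replicate 2, CG replicate 3 or TG replicate 2 the count was 2, and 17704, 19180 and 17124 of all genes were called. Without TG replicate 1 the count was 3 and the median over the 25 genes was -0.07. Scaled by library size only, the median of all genes moved by 0.23 on the log2 scale, 69.9% of all calls were higher, the median over the 25 genes was 0.07, and 1 of the 4 autophagy genes remained called, also lower.

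TraesCS1D02G221700 (ATG3, chromosome 1D, 309565246 to 309569112) fell furthest, with 28.1, 29.9 and 30.5 CPM in TG against 43.7, 54.6 and 50.7 CPM in CG. The groups did not overlap, and the log2 fold change was -0.73 ± 0.14 (adjusted p = 0.00424), called in 6 of 6 fits with 1 library left out. The 1B copy TraesCS1B02G233500 had 16.2, 18 and 21.2 CPM in TG and 24.5, 28.5 and 24 CPM in CG (log2 fold change -0.45 ± 0.15, adjusted p = 0.0402, called in 1 of 6 such fits). The 1A copy TraesCS1A02G220200 had 24.5, 25.9 and 29.1 CPM in TG and 31.1, 37.1 and 36 CPM in CG, and its log2 fold change of -0.37 ± 0.13 missed the threshold (adjusted p = 0.063).

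TraesCS3D02G231900 (ATG7b) had 13.2, 16.8 and 18.3 CPM in TG, against 20.1, 30.7 and 26.1 CPM in CG, and fell by 0.65 on the log2 scale (SE 0.19, adjusted p = 0.0304, called in 3 of 6 fits with 1 library left out). The same TG libraries served in both root comparisons, so its fall under NaCl and its rise with 3-MA are not separate observations. TraesCS4D02G224800, the 4D copy of ATG9, had 9.52, 12.2 and 12.5 CPM in TG and 16.9, 18.8 and 18.1 CPM in CG, a log2 fold change of -0.63 ± 0.15 (adjusted p = 0.0115, called in 6 of 6 fits with 1 library left out). The 4B copy TraesCS4B02G224200 lay at -0.44 ± 0.16 (adjusted p = 0.0578). TraesCS2A02G468300, the most abundant gene, had 74, 71.2 and 66.9 CPM in TG and 91.1, 89.2 and 91.2 CPM in CG, with no overlap and an adjusted p of 0.0672 (log2 fold change -0.33 ± 0.12).

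Set against the control directly, TMG roots had 7 genes higher and 3 lower than CG, beside 56.6% of all 73516 genes called (28.1% higher and 28.5% lower). All TMG libraries lay above all CG libraries in 6 genes (30% of all genes) and below them in 4 (34.5% of all genes). The higher ones were both ATG18 genes and 5 genes without a number. TraesCS1A02G112700 (ATG18d) had 8.2, 7.85 and 9.04 CPM in TMG and 4.57, 5.28 and 6.14 CPM in CG (log2 fold change 0.73 ± 0.15, adjusted p = 0.00163), and TraesCS1B02G132900 (ATG18a) was higher by 0.65 ± 0.15 (adjusted p = 0.00287). The lower ones were the 1D copy of ATG3, TraesCS1D02G221700, at 30.6, 29.6 and 31.8 CPM in TMG and 43.7, 54.6 and 50.7 CPM in CG (log2 fold change -0.62 ± 0.12, adjusted p = 0.000863), and the ATG9 copies TraesCS4B02G224200 and TraesCS4D02G224800 at -0.43 and -0.37. ATG7b was not called, at 26.6, 32 and 30.9 CPM in TMG and 20.1, 30.7 and 26.1 CPM in CG. With library size as the only scaling 15 genes were called higher and 1 lower, beside 28916 of all 73516 genes higher and 15922 lower. That scaling moved the median of all genes by 0.26 on the log2 scale. The TMG and CG libraries are those of the comparisons above.

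**Figure D3:**
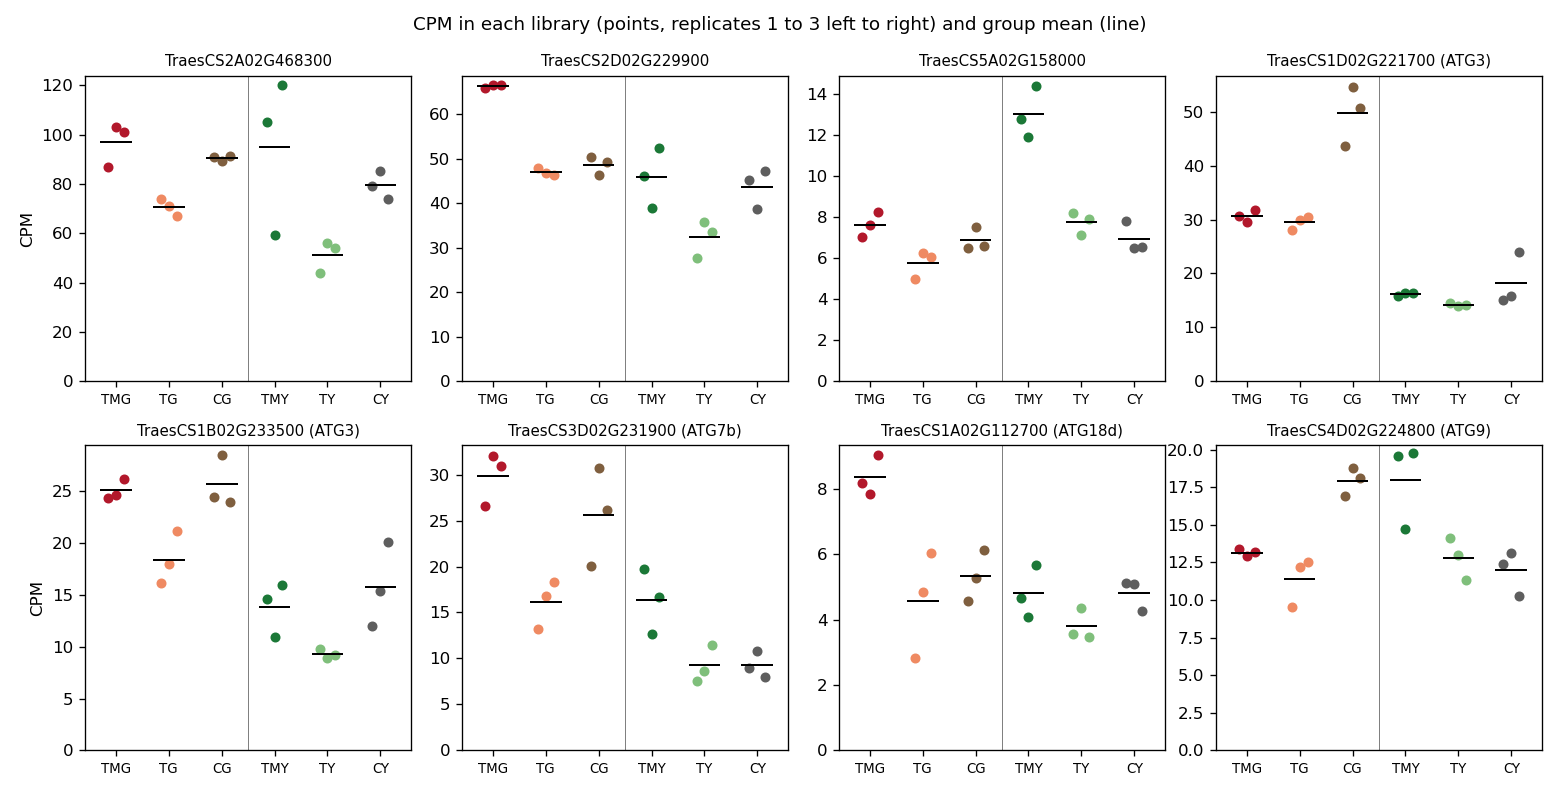
CPM of 8 autophagy genes in each of the 18 libraries (points, 3 per group) with the group mean (line), root groups left and leaf groups right of the grey line. ATG7b lay between 26.6 and 32 CPM in TMG and between 13.2 and 18.3 CPM in TG, and TMY replicate 2 lay below the other TMY libraries in all panels but that of TraesCS1D02G221700.

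In roots the counted shares of the 3 copies of ATG3 differed between the libraries of the groups. TraesCS1D02G221700 held 33.3%, 33.4% and 33.1% of the ATG3 counts in the TMG libraries, 40.8%, 40.5% and 37.8% in TG, and 44%, 45.4% and 45.8% in CG. The 3 groups did not overlap. The difference in share was -6.41 percentage points between TMG and TG and -5.38 points between TG and CG (exact permutation test, two-sided, p = 0.1 for each, the smallest that 3 against 3 libraries allow). In leaves the share was 34.3%, 41.6% and 32.4% in TMY, 41.1%, 36.7% and 42.3% in TY, and 35.7%, 29.5% and 38% in CY, and the groups overlapped in TMY against TY and in TY against CY (exact p = 0.3 and 0.2). This share was chosen for a test after its values were seen, and it rests on how reads were divided between near-identical copies. The same TG libraries served in both root differences. Shares were also computed for other sets of copies, from which ATG3 was picked. The 4D copy of ATG9, TraesCS4D02G224800, held 35.7% to 36.8% in TMG, 32.1% to 34% in TG and 36.8% to 39% in CG. Its TG libraries thus lay apart from both other groups, which was not so for the other ATG9 copies.

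**Figure D4:**
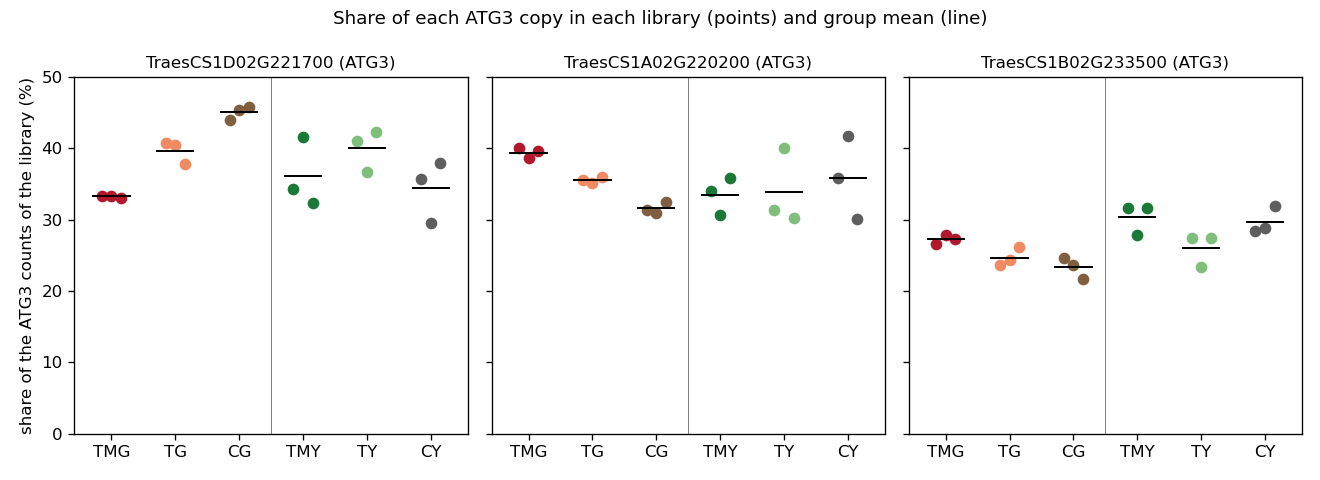
Share of the ATG3 counts of a library (percent, axis from 0) that came from each of the 3 copies, with points for libraries and lines for group means. The share of TraesCS1D02G221700 was 33.1% to 33.4% in TMG, 37.8% to 40.8% in TG and 44% to 45.8% in CG, without overlap, while the leaf groups overlap.

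The same question was put to leaves. Between TMY and TY, 2 of the 25 genes rose and 0 fell, beside 18.4% of all 64867 genes called (8.44% higher and 9.94% lower). The median log2 fold change was 0.35 over the 25 genes and 0 over all genes, and 21 of the 25 were positive. All TMY libraries lay above all TY libraries in 9 genes (20% of all genes). The count depended on single libraries: it was 11, all higher, without TMY replicate 2, it was 0 without TY replicate 1, TY replicate 2, TMY replicate 1 or TMY replicate 3, and it was 1 without TY replicate 3. Calls over all genes moved in the same direction, from 11923 to 17369 of 66952 genes without TMY replicate 2. They were 5174 to 7037 in the other fits with 1 library left out. Library size as the only scaling gave 8, all higher, moved the median of all genes by 0.15 and left 62.4% of all calls higher.

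TraesCS3D02G231900 (ATG7b) was one of the called genes, with 19.7, 12.7 and 16.7 CPM in TMY against 7.59, 8.67 and 11.5 CPM in TY (log2 fold change 0.79 ± 0.22, adjusted p = 0.0412). TraesCS5A02G158000, a gene without a number on chromosome 5A (338232306 to 338236790), was the other, with 12.8, 11.9 and 14.4 CPM in TMY against 8.18, 7.15 and 7.93 CPM in TY (log2 fold change 0.72 ± 0.15, adjusted p = 0.0163). Neither gene's groups overlapped. TraesCS2A02G468300 had the largest fold change of the tested genes but was not called (log2 fold change 0.86 ± 0.26, adjusted p = 0.0547). It had 105, 59.5 and 120 CPM in TMY, where replicate 2 lay near the TY libraries, and 44.1, 55.9 and 54 CPM in TY. TraesCS5B02G155700 likewise had 9.66, 5.09 and 12 CPM in TMY and 4.5, 4.83 and 5.41 CPM in TY (log2 fold change 0.83 ± 0.3, adjusted p = 0.0932).

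The ATG9 genes were all positive in this comparison without being called, at log2 fold changes of 0.52 ± 0.21 for TraesCS4A02G079800, 0.52 ± 0.16 for TraesCS4B02G224200 and 0.46 ± 0.17 for TraesCS4D02G224800 (adjusted p = 0.128, 0.0584 and 0.1). TraesCS1B02G233500 (ATG3) lay at 0.55 ± 0.18 (adjusted p = 0.0705). TraesCS3D02G266800 (ATG6a) had 12.8, 10.9 and 12 CPM in TMY and 15.3, 17.7 and 13.8 CPM in TY, with every TMY library below every TY library (log2 fold change -0.42 ± 0.16, adjusted p = 0.0979). It was the only tested gene whose TMY libraries all lay below the TY libraries (18.7% of all genes).

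Between TY and CY, 2 of the 25 genes fell and 0 rose, beside 23.3% of all 62945 genes called (10.1% higher and 13.2% lower). TraesCS1B02G233500 (ATG3) had 9.74, 8.88 and 9.19 CPM in TY and 12, 15.4 and 20.1 CPM in CY (log2 fold change -0.71 ± 0.2, adjusted p = 0.0323). TraesCS2A02G468300 had 44.1, 55.9 and 54 CPM in TY and 79, 85.2 and 73.9 CPM in CY (log2 fold change -0.57 ± 0.16, adjusted p = 0.0305). Neither gene's groups overlapped, but each call held in 1 of 6 fits with 1 library left out. The count was 0 without TY replicate 1 or TY replicate 3, where calls over all genes fell from 14655 to 8403 and 8045. It was 1 without CY replicate 1 or CY replicate 3, and it was 1 other gene without CY replicate 2 (a higher one) or TY replicate 2 (a lower one). Scaled by library size only, the median of all genes moved by 0.35, 75.8% of all calls were higher, neither gene remained called and 2 others were called higher.

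The median log2 fold change between TY and CY was -0.05 over the 25 genes, and the TY libraries lay all above the CY libraries in 3 genes (19.4% of all genes) and all below in 7 (23.7% of all genes). TraesCS1B02G132900 (ATG18a) had 5.16, 8.39 and 6.67 CPM in TY and 11.6, 8.87 and 10.7 CPM in CY, without overlap (log2 fold change -0.57 ± 0.21, adjusted p = 0.0864). TraesCSU02G109200 (ATG5) had 15.2, 9.44 and 8.85 CPM in TY and 6.65, 7.53 and 8 CPM in CY, again without overlap (log2 fold change 0.65 ± 0.23, adjusted p = 0.0727). ATG7b had 7.59, 8.67 and 11.5 CPM in TY and 8.99, 10.8 and 8 CPM in CY, so that its TY and CY libraries overlapped.

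Against the control, TMY leaves had 4 genes higher and 1 lower than CY, beside 37.2% of all 63980 genes called (16.6% higher and 20.6% lower). The libraries of TMY lay all above those of CY in 9 genes (26.6% of all genes) and all below in 3 (26.1% of all genes). The count was 2 without CY replicate 1, CY replicate 3, TMY replicate 1 or TMY replicate 3 and 3 without CY replicate 2. In these fits 16036 to 21817 of all genes were called, against 23794 with all libraries. Library size as the only scaling gave 16, all higher, beside 25877 of all 63980 genes higher and 8100 lower. That scaling moved the median of all genes by 0.53. TraesCS5B02G155700, one of the genes without a number, had 9.66, 5.09 and 12 CPM in TMY and 2.74, 3.97 and 2.94 CPM in CY, the largest change of any tested autophagy gene in the 9 comparisons (log2 fold change 1.45 ± 0.33, adjusted p = 0.00998). TraesCS5A02G158000 was higher by 0.9 ± 0.18 (adjusted p = 0.00566), TraesCS3D02G231900 (ATG7b) by 0.81 ± 0.21 (adjusted p = 0.019) and TraesCS4D02G224800 (ATG9) by 0.58 ± 0.19 (adjusted p = 0.0426). With 1 library left out, TraesCS5B02G155700 and TraesCS5A02G158000 were each called in 6 of 6 fits, ATG7b in 2 and TraesCS4D02G224800 in 1. TraesCS3D02G266800 (ATG6a) was the lower one, at 12.8, 10.9 and 12 CPM in TMY and 14.9, 17.5 and 17.8 CPM in CY (log2 fold change -0.51 ± 0.16, adjusted p = 0.0401), and it was called in 0 of 6 fits with 1 library left out.

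Root was then set against leaf within each treatment. Of the 25 genes, 14 were called in TMG against TMY (60.8% of all genes), 8 of them higher (33% of all genes) and 6 lower (27.8% of all genes). In TG against TY 10 were called (63.8% of all genes), 5 of them higher (35.6% of all genes) and 5 lower (28.2% of all genes). In CG against CY 10 were called (65.4% of all genes), 7 of them higher (36.1% of all genes) and 3 lower (29.3% of all genes), and the share called was under the background in each pair. Root libraries lay all above or all below leaf libraries in 9 and 6 genes for TMG against TMY (38.5% and 30.7% of all genes), in 10 and 6 for TG against TY (42.2% and 29.2% of all genes) and in 11 and 3 for CG against CY (42.1% and 30.1% of all genes). The counts were 9 without TMG replicate 1 or TMG replicate 3 in the pair with 3-MA, 6 without TY replicate 1 or TY replicate 3 in the NaCl pair and 6 without CG replicate 2 in the control pair. In the same order 40552, 41465, 46038, 46063 and 43566 of all genes were called in these fits. The ATG3 genes and ATG7b were higher in roots in each of the 3 pairs. TraesCS1D02G221700 had a log2 fold change of 0.91 ± 0.11 in TMG against TMY, 0.95 ± 0.12 in TG against TY and 1.36 ± 0.2 in CG against CY. TraesCS3D02G231900 (ATG7b) had 0.86 ± 0.18, 0.7 ± 0.2 and 1.38 ± 0.2 for the same pairs. TraesCSU02G109200 (ATG5) was lower in roots in all pairs, at -0.57 ± 0.16, -1.26 ± 0.24 and -0.62 ± 0.19. Lower calls rest on the scaling: with library size only, which moved the median of all genes by 0.34, 0.46 and 0.59 in the same pairs, 2, 1 and 0 of the 25 genes were called lower. TraesCS5D02G394200 (ATG16b) had 4.97, 5.21 and 7.26 CPM in CG and 2.49, 2.68 and 2.06 CPM in CY (log2 fold change 1.18 ± 0.25, adjusted p = 0.00188).

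Whether a treatment change differed between the tissues was tested as an interaction on 12 libraries. For NaCl 1 of the 25 genes was called (11.1% of all 79339 genes tested, 6.17% higher and 4.91% lower), and for 3-MA 0 were called (10.5% of all 79864 genes, 3.4% higher and 7.12% lower), with 0 by DESeq2 and 1 at an unadjusted p under 0.05. The called gene was TraesCS4D02G224800, the 4D copy of ATG9, whose log2 fold change was -0.63 ± 0.15 between TG and CG and 0.16 ± 0.16 between TY and CY, where it had 14.1, 13 and 11.3 CPM in TY and 12.4, 13.1 and 10.3 CPM in CY. The difference between tissues was -0.81 ± 0.22 on the log2 scale (adjusted p = 0.0313), and it was called in 4 of 12 fits with 1 library left out. It was lost without CG replicate 2 or 3, TG replicate 1 or 2, CY replicate 1 or 3, or TY replicate 1 or 2.

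Other genes of the pathway were few in the described part of the table. Of all genes, 18.5% were called higher and 17.1% lower between TG and CG, 8.16% and 12% between TMG and TG, 10.1% and 13.2% between TY and CY, and 8.44% and 9.94% between TMY and TY. Of 3 genes for the kinase TOR, a repressor of autophagy, none passed the test between TG and CG (log2 fold changes -0.58 to -0.34), and 1 rose between TMG and TG, though not without TG replicate 2 or without any 1 of the TMG libraries. In leaves none was called between TY and CY (0 to 0.09) or between TMY and TY (-0.52 to -0.24). The 3-MA change of the risen gene, TraesCS1A02G227600, differed between tissues by 1.01 ± 0.28 (adjusted p = 0.0394 by edgeR's test of the interaction). The 3 genes described as SNF1-type kinases all fell between TG and CG, by log2 fold changes of -2.04 to -1.44. Their description does not show whether they act in autophagy. Between TMG and TG their log2 fold changes of 0.04 to 0.39 did not pass the test, and in leaves 1 rose between TMY and TY. Of 32 genes of other phosphoinositide enzymes, 23 of them phosphatidylinositol 4-phosphate 5-kinases and 9 phospholipases C, 25 were tested between TG and CG, where 1 rose and 8 fell, and 25 between TMG and TG, where 2 rose and 3 fell. Both totals were near the shares of all genes called (35.6% and 20.2%). By direction, the 8 falls between TG and CG stood beside 17.1% of all genes and the 1 rise beside 18.5%. The count between TMG and TG was 3 without a filter on low counts and 1 without TG replicate 2 or TMG replicate 1. In leaves 1 of 22 rose between TY and CY (23.3% of all genes called) and 4 of 23 fell between TMY and TY (18.4% of all genes called). The list written for vacuolar proteolysis held 107 genes, of which 104 were cysteine proteinase inhibitors, and it is therefore a list of inhibitors of proteinases. Of the tested inhibitors, 7 of 22 rose and 3 fell between TG and CG, and 0 of 23 rose and 10 fell between TMG and TG, where the count for the whole list was 4 without TMG replicate 1 or TMG replicate 3. In leaves 0 of 17 inhibitors rose and 5 fell between TY and CY, and 2 of 17 rose and 2 fell between TMY and TY. The other 3 genes of the list gave 2 rises between TMY and TY and no call in the other 3 comparisons.

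Because no 3-kinase was found by description, 6 genes whose domain family is PI3Ka, a domain of both phosphatidylinositol 3-kinases and 4-kinases, were added after the table had been seen. Of these 0 rose and 3 fell between TG and CG (median log2 fold change -0.49, beside 17.1% of all genes called lower). The 3 that fell were the copies on 5A, 5B and 5D, at -1.15, -0.63 and -1.05. The copies on 4A, 4B and 4D lay at -0.35, -0.08 and -0.29 and were not called. None of the 6 genes was called, by edgeR or DESeq2, between TMG and TG (0.2 to 0.4), between TY and CY (-0.05 to 0.19) or between TMY and TY (-0.49 to 0.46), beside 20.2%, 23.3% and 18.4% of all genes called. The 9 new genes of the authors with an autophagy domain were added in the same way. Between TG and CG 1 of 7 tested rose (35.6% of all genes called), between TY and CY 1 of 8 rose and 1 fell (23.3% of all genes called), and with 3-MA 0 were called in either tissue by edgeR or DESeq2.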

How the data were processed

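RNA-seq counts per gene were deposited by the authors as raw counts in 18 libraries, after reads had been mapped to the Chinese Spring assembly and counted on annotated and newly assembled genes. The submitters' processing notes name HISAT2 2.0.5 and Bowtie 0.12.2 without a role, and a mouse build. The counting program and its use of strand are not given in the sources used here. The authors also deposited FPKM values, which were not tested, and columns of their own comparisons, 30 of group means and 45 of fold changes and p-values, none of which was used. Groups came from the labels. The labels speak of replicates from 3 pots and also of 4 biological replicates per treatment, and 3 libraries per group were analysed, so p-values measure the spread between these libraries. All replicate pairs differed by more than sampling noise.

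The count test was the quasi-likelihood test of edgeR 4.0.16 in R 4.3.3. Each comparison took the libraries of its own groups, genes of low counts were removed by filterByExpr, libraries were scaled by TMM, and p-values were adjusted by Benjamini-Hochberg over all genes tested, with calls at 0.05 or less. Standard errors are the fold change over the root of the F statistic. CPM values use TMM factors over the 18 libraries. DESeq2 1.42.0 was an alternative, as were RLE factors, library size only, no filter, a CPM of 1 in 3 libraries, more groups in the fit, a replicate block and each library left out. The code was tested on simulated data. Files were read with the R package data.table (version 1.17.8) and figures drawn in Python 3.11.15 with matplotlib 3.10.9.

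Values per library are given for TraesCS6B02G214000, for the member of each family with the highest mean RPKM, and in each of 4 comparisons for up to 5 called genes with the largest rise and up to 5 with the largest fall, without overlap and not under 0 in mean log2 CPM. Other genes are named where a family is described. The members, the lists and this rule were chosen with earlier results of these data known. No wheat sequence table was used here.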

Additional observations from a re-analysis of the deposited data

Results flagged for a closer look

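TraesCS4D02G224800, the 4D copy of ATG9, was the only autophagy gene whose NaCl change differed between roots and leaves by the test of the difference itself. Of all 79339 genes tested, 11.1% were called by the same test, so 1 of 25 was under the background. The difference was -0.81 on the log2 scale (SE 0.22, adjusted p = 0.0313 by edgeR's quasi-likelihood test, and 0.0106 by DESeq2). In roots every TG library (9.52, 12.2 and 12.5 CPM) lay below every CG library (16.9, 18.8 and 18.1 CPM), while in leaves TY (14.1, 13 and 11.3 CPM) and CY (12.4, 13.1 and 10.3 CPM) overlapped. The other ATG9 copies had differences of 0.01 ± 0.26 (TraesCS4A02G079800) and -0.4 ± 0.22 (TraesCS4B02G224200), neither called. The call was lost in 8 of 12 fits with 1 library left out. Groups of 3 libraries were not tested for single outlying values.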

How the results depend on the processing

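The 9 genes called higher between TMG and TG were all called under DESeq2, RLE factors, library size only, no filter, the stricter filter, 3 groups in one fit and the replicate block. With library size only, 1 gene was called in TG against CG, 16 in TMG against CG, 8 in TMY against TY, 16 in TMY against CY and 17 in CG against CY. In the same order 28660, 44838, 13152, 33977 and 51931 of all genes were called. With the 3 groups of a tissue in one fit the counts were 7 in TG against CG, 1 in TY against CY and 4 in TMY against TY, and DESeq2 gave 4 in TMY against TY. Without a filter 0 genes had a tissue difference in the NaCl change. In no comparison did the correlation between same-numbered libraries exceed 0.1 in all 3 pairs (-0.23 to 0.19 over all pairs), so the numbers were not taken to pair them. With the replicate block 0 genes were called in TMY against TY and 2 in TMY against CY, and 2 of the other phosphoinositide enzymes in TMG against TG. Leaving out 1 library gave 2 to 5 genes in TG against CG, 2 to 10 in TMG against TG, 8 to 12 in TMG against CG, 0 to 1 in TY against CY, 0 to 11 in TMY against TY, 2 to 5 in TMY against CY, 6 to 10 in CG against CY, 6 to 8 in TG against TY, 9 to 15 in TMG against TMY, and 0 to 1 for each tissue difference. Calls over all genes changed in these fits too. They ranged from 17124 to 27797 in TG against CG and from 7430 to 16839 in TMG against TG. In leaves they ranged from 8045 to 13999 in TY against CY and from 5174 to 17369 in TMY against TY.

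Signs of fold changes turned in 35 fits of single genes, mostly of genes not called and near 0. With library size only the log2 fold changes in TG against CG became 0.04 for TraesCS1A02G112700, 0.2 for TraesCS2D02G229900, 0.19 for TraesCS2D02G351500, 0.06 for TraesCS3D02G266800, 0 for TraesCS5A02G158000, 0.1 for TraesCS5D02G394200 and 0.22 for TraesCSU02G109200. In TY against CY they became 0.05 for TraesCS1A02G112700, 0.07 for TraesCS1D02G221700, 0.3 for TraesCS3D02G266800 and 0.05 for TraesCS4A02G079800. TraesCS3D02G266800 in TMY against CY (0.03) and TraesCS3A02G266600 in TG against TY (0.1) were called lower with TMM factors. In TG against CG, TraesCS1B02G132900 was at -0.01 under DESeq2 and RLE factors and TraesCSU02G109200 at 0.01 under the stricter filter. With 1 library left out, the range in TG against CG was -0.45 to 0.06 for TraesCS1A02G112700, -0.14 to 0.16 for TraesCS1B02G132900, -0.13 to 0.04 for TraesCS2D02G351500, -0.27 to 0.04 for TraesCS5D02G394200 and -0.1 to 0.1 for TraesCSU02G109200. In TMG against TG it was -0.11 to 0.15 for TraesCS3D02G266800, -0.03 to 0.17 for TraesCS4A02G079800 and -0.18 to 0.14 for TraesCS5D02G394200. In leaves it was -0.13 to 0.18 for TraesCS3D02G231900 and -0.14 to 0.03 for TraesCS3D02G266800 in TY against CY, and -0.13 to 0.34 for TraesCS2D02G351500 in TMY against TY. The cause of these changes was not tested. Genes named outside the fixed rule, and the alternatives for the pathway lists, were added after the data had been seen.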

Other observations

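Summed over the 29 autophagy genes, CPM was 565 to 623 in TMG, 433 to 468 in TG and 530 to 581 in CG, so that the TG libraries lay below the others. Scaled by library size only, an alternative chosen after seeing the data, the sums were 711 to 787 in TMG, 506 to 563 in TG and 537 to 578 in CG, where TG and CG overlapped. In leaves the sum was 387 to 568 in TMY, 313 to 388 in TY and 426 to 457 in CY, with overlap between TMY and both other groups. By library size only they were 398 to 567 in TMY, 296 to 344 in TY and 293 to 338 in CY, and TMY lay above both. These sums are carried mainly by the abundant genes without a family number.

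TraesCS3A02G220600 (ATG7c) had 208 counts in TMG replicate 3, or 5.43 CPM, and 0 in TMG replicates 1 and 2. The gene was not tested between groups, but its 5.43 CPM is part of the TMG sum given above.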
